A study of Triticum aestivum with 24 samples.

Results

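The miR169 family was represented by 8 of the 202 miRNA tags in the count table, namely every tag with miR169 in its name. A tag is here a distinct small RNA sequence of one length. Small RNA was sequenced from leaves of hexaploid bread wheat (Triticum aestivum) cv Chinese Spring, the cultivar behind the wheat reference genome, in 24 libraries that formed 6 groups of 4. Control plants stayed at 18 °C by day and 16 °C by night throughout. Heat plants were grown under the same conditions, but were held at 37 °C for 5 days at the boot stage and were well watered meanwhile. After the stress they were returned to the conditions of the controls. They were sampled in parallel with the controls on 3 occasions, right at the end of the stress (0 DAT, days after treatment) and 1 and 4 days later. The 72 plants of a treatment were divided into 4 pools of 18, with 1 library per pool and day, so that every day drew on the same plants. All seed descended by selfing from 1 Chinese Spring plant, so the libraries sampled no variation between wheat lines, and the 4 pools of a group came from 1 growth experiment. Genetic variation between the plants was not measured.

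The table held 3421194 reads, with 58501 to 300261 reads per library (median 137292), and only miRNA tags, so that the leaf origin of the RNA could not be checked against leaf markers. Of these reads, 8406 belonged to miR169, which took 0.276% ± 0.155 (SD, n = 24) of the reads of a library. Levels are given as RPM (reads scaled to a library of 1000000) after scaling by the trimmed mean of M-values (TMM), which equalises the typical tag between libraries. A single read was worth 3.76 to 16.7 RPM, depending on the library. In a bulk leaf sample, a lower level in each cell and fewer cells that hold the RNA cannot be told apart.

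miR169 is a conserved plant family. The guide strand, loaded into an Argonaute protein, pairs with transcripts of the A subunit of nuclear factor Y (NF-YA) and leads to their cleavage. NF-YA joins the NF-YB and NF-YC subunits in a complex that binds the CCAAT box of promoters, and in Arabidopsis miR169 and its NF-YA targets are known for their part in responses to drought and to nitrogen supply. The mature guide lies on the 5p arm of the miR169 hairpin, while the strand opposite to it in the duplex, the 3p or star strand, is usually the less abundant product.

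The 8 sequences are shown because names alone hide which of them come from the 5p arm and which differ by a single base. They are printed 5′ to 3′ with T for U and with bases 2 to 8, the seed, in capitals.
miR169l-1: tAGCCAAGaatgacttgcctg
miR169-34-3p: gGCGGTCAccttggctagc
miR169-35-3p: aGGCGGTCaccttggctagc
miR169-43.a-3p: gGCGGTTAccttggctagc
miR169-43.b-3p: gGCGGTTAccttggctagcc
miR169-51-3p: aGGCGGTTaccttggctagc
miR169-9-3p: gGTGGGTCttcttggctagc
miR169-45-3p: tGGGCAAGtcaccctggctacc
The seed of miR169l-1, AGCCAAG, was shared with no other tag of the family, and the 21 nt of miR169l-1 were the only ones of the 5p arm. The other 7 tags were 19 to 22 nt long and came from the 3p arm. Among them miR169-34-3p and miR169-43.a-3p, both of 19 nt, differed only by C7T, counted from the 5′ end with the base of the former given before the position. miR169-35-3p and miR169-51-3p, both of 20 nt, differed by the same base, there at C8T. miR169-35-3p was miR169-34-3p with an A added at the 5′ end, miR169-51-3p was miR169-43.a-3p with the same added A, and miR169-43.b-3p was miR169-43.a-3p with a C added at the 3′ end. miR169-43.a-3p and miR169-43.b-3p shared their seed, whereas the extra 5′ base moved the seed of miR169-35-3p and miR169-51-3p by 1 position. Reads of the C and the T tags could be told apart only at that base, and the part of sequencing error there was not tested.

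In the IWGSC RefSeq v1.0 assembly, the best-scoring hairpin listed by the study lay on chromosome 2A at 485771034 to 485771172 (plus strand) for miR169-34-3p and miR169-35-3p. It lay on chromosome 2D at 360310996 to 360311134 (plus strand) for miR169-43.a-3p, miR169-43.b-3p and miR169-51-3p. The listed hairpins were on 4D at 82864509 to 82864669 (minus strand) for miR169-9-3p, on 5B at 700595470 to 700595609 (minus strand) for miR169-45-3p and on 2B at 775141062 to 775141176 (plus strand) for miR169l-1. Every tag but miR169-45-3p matched more than 1 hairpin of that assembly, so a tag cannot be assigned to the chromosome of its listed hairpin alone. Gene models of that assembly were not used here. In all 4 listed hairpins of the 3p tags, 17 to 19 bases of the tag were paired in the predicted fold with a 5p stretch that was nearly the sequence of miR169l-1. These 5p stretches are shown to compare with miR169l-1, with the bases that differ from it in capitals.
2A and 2D: tagccaagGatgacttgcctA
4D: tagccaagaatgacttgcctA
5B: tagccaagGatgaTttgcctg
Relative to miR169l-1, with its base first and positions counted from the 5′ end, the changes were A9G and G21A for 2A and 2D, G21A for 4D, and A9G and C14T for 5B. None of these stretches was itself a tag of the table.

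The study's target table, of which a shortened copy was read here, paired miR169l-1 with 10 transcripts annotated as nuclear transcription factor Y subunits. Rows for other tags and sites may be missing from that copy. The 10 transcripts held 7 distinct sites. Of these sites, 3 are shown, written 5′ to 3′ as in the transcript, with the bases that pair with miR169l-1 in capitals.
TraesCS5A01G373500.1: CAGGCAAaTCATTCTTGGCTc
TraesCS4A01G277300.1: CAGGCAAtTCATTCTTGGCTt
TraesCS6A01G335400.1: CAGGCAAcTCATcCTTGGCTt
miR169l-1 formed 17 to 19 Watson-Crick pairs over the 21 bases of the 7 sites, and all 7 bases of its seed were paired in each. The 3p tags reached no more than 8 or 9 pairs with these sites in any ungapped register that overlapped by at least 15 bases. All these sites were listed for miR169l-1, so its closer pairing there follows from how the sites were chosen. The study also lists miR169-51-3p for NF-Y subunits, and sites listed for that tag were not analysed here. miR169l-1 made up 23.2% ± 19.9 (SD, n = 24) of the miR169 reads of a library, from 0.738% to 62.1%.

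Over all 24 libraries, miR169-45-3p was the most abundant member at 779.2 ± 455.3 RPM (mean ± SD), followed by miR169l-1 at 658.2 ± 695.4 RPM and miR169-9-3p at 620.7 ± 360.9 RPM. These 3 levels did not differ beyond their spread, although levels of tags of different sequence also carry ligation bias. The next tag, miR169-34-3p, stood at 186.8 ± 160.8 RPM. Lower still were miR169-51-3p at 112.2 ± 46.8 RPM, miR169-43.a-3p at 109.1 ± 69.4 RPM, miR169-43.b-3p at 75.8 ± 58.1 RPM and miR169-35-3p at 46.1 ± 47.0 RPM. The lower tags rested on few reads. miR169-35-3p had fewer than 10 reads in 18 of 24 libraries and 0 reads in 2 of them, and miR169-43.a-3p and miR169-43.b-3p were each at 0 in 1 library, where a count of 0 allows up to 3 reads.

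**Figure D1:**
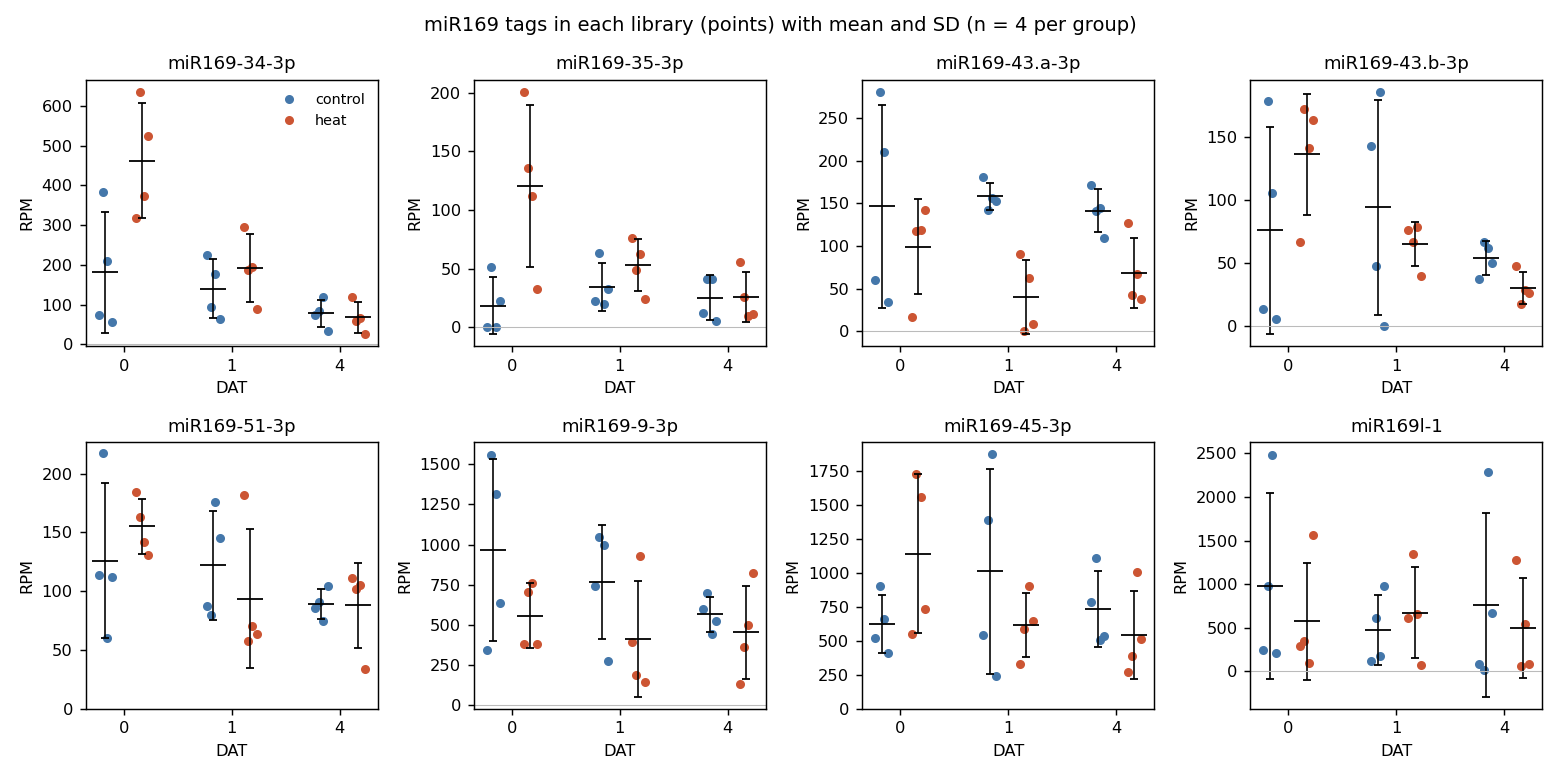
Level of each miR169 tag (RPM, linear axis, its own scale in each panel) in the 24 libraries by DAT, with control in blue and heat in orange; each point is 1 library, and bars give the mean and SD of 4. At 0 DAT the 4 heat libraries of miR169-34-3p sit at 317.9 to 635.4 RPM, with control replicate 2 at 383.4 RPM inside that range. At 1 DAT the 4 heat libraries of miR169-43.a-3p sit at 0 to 91.1 RPM, below all 4 controls.

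By the SD of log2 RPM, miR169l-1, the 5p tag, varied more between libraries of the same group than any other of the 202 tags. By the dispersion, the spread that edgeR estimates for each tag, it ranked 3rd (1.004). The SD within groups of its log2 RPM was 1.91, compared with a median of 0.497 over all tags and 1.62 for miR395-18-3p, the tag next in rank, which is named here after its value was seen. In control plants at 0 DAT, miR169l-1 was at 240.1, 977.7, 2487 and 213.3 RPM in replicates 1 to 4. In heat plants at 0 DAT it was at 284.4, 344.9, 96.9 and 1562 RPM. At 1 DAT the control libraries held 115.2, 611.3, 176.1 and 975.2 RPM. The heat libraries of that day held 614.8, 1348, 656.6 and 71.9 RPM, so that the groups overlapped over most of their range. At 4 DAT the control libraries held 85.9, 16.6, 2285 and 668.0 RPM, which spans 138-fold, and the heat libraries 1282, 59.4, 546.5 and 78.9 RPM. The replicate number was taken to mark the same pool of plants. Control replicate 3 was the highest control at 0 and at 4 DAT but stood at 176.1 RPM at 1 DAT, where replicate 4 was highest, and among heat libraries replicate 4 was highest at 0 DAT, replicate 2 at 1 DAT and replicate 1 at 4 DAT. The highest level, 2487 RPM, was in the shallowest library of the series (58501 reads), whereas the next, 2285 RPM, rested on 553 reads of the tag among 268855.

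**Figure D2:**
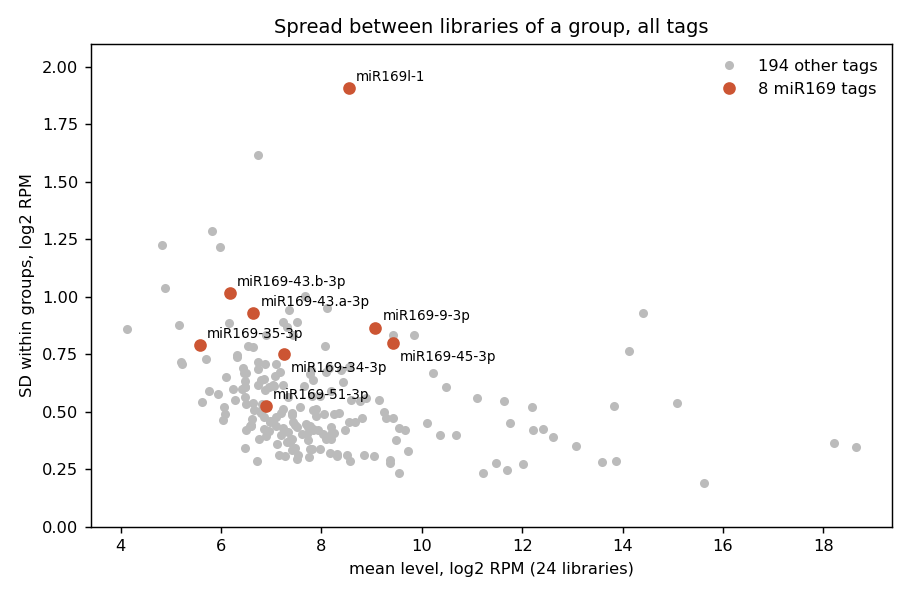
Mean level (log2 RPM over 24 libraries) against the SD of log2 RPM within the 6 groups, with 1 point for each of 202 tags and the 8 miR169 tags in orange. miR169l-1 is the highest point at 1.91, while miR169-51-3p at 0.52 lies near the median of all tags.

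The other members also spread widely. Of the 202 tags, miR169-43.b-3p ranked 7th in spread (SD 1.02), miR169-43.a-3p 11th (0.93), miR169-9-3p 18th (0.87), miR169-45-3p 24th (0.80), miR169-35-3p 25th (0.79) and miR169-34-3p 30th (0.75). miR169-51-3p ranked 91st (0.52). miR169l-1 had 94.2 reads per library on average, while miR169-51-3p, with the smallest spread of the family, had 14.8.

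Heat against control was tested for every tag with edgeR's quasi-likelihood F-test, in 1 fit of the 6 groups, with false discovery rates (FDR, Benjamini-Hochberg) over all 202 tags and a threshold of 0.05. At the end of the stress, miR169-35-3p was higher in heat plants and no other member passed. This was 1 of 8 members higher and 0 lower, where 17.3% of all tags passed in either direction, 8.91% higher and 8.42% lower. That split of 18 higher and 17 lower tags became 17 and 7 with library totals as scaling, and 17 and 8 with totals without miR166. The median log2 fold change of the 8 members was 0.56, with 5 of 8 above 0, compared with -0.04 and 98 of 202 over all tags.

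miR169-35-3p had 0, 8, 0 and 4 reads in the control libraries of 0 DAT and 12, 15, 15 and 3 reads in the heat libraries. In RPM these were 0, 51.1, 0 and 22.5 against 200.8, 136.2, 111.8 and 32.8. Heat replicate 4 fell within the range of the controls, and the other heat libraries lay above all of them. The log2 fold change was 2.42 ± 0.74 (SE; 95% interval 0.91 to 3.94; edgeR FDR 0.0254). With 12 and 45 reads per group, this call was thin. The FDR rose to between 0.0528 and 0.0747 when any of control replicates 1, 3 and 4 or heat replicates 1, 2 and 3 of 0 DAT was left out, with log2 fold changes of 2.00 to 2.46, and it was 0.0597 when the fit used the 8 libraries of that day. Without control replicate 2 the log2 fold change was 3.47 (edgeR FDR 0.0109).

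miR169-34-3p, which is the same sequence without the 5′ A, had a log2 fold change of the same sign but did not pass. It was at 73.4, 383.4, 211.0 and 56.1 RPM in the control libraries of 0 DAT and at 317.9, 635.4, 372.7 and 524.2 RPM in the heat libraries. Control replicate 2 lay inside the heat range and the other 3 controls below it. The log2 fold change was 1.38 ± 0.50 (SE; 95% interval 0.34 to 2.42; edgeR FDR 0.0593). Without control replicate 2 it was 2.19, with an FDR of 0.00859, and the likelihood ratio test of edgeR gave an FDR of 0.0483.

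Of the 3 tags with T in place of C, none passed, and their log2 fold changes were 0.95 for miR169-43.b-3p (95% interval -0.48 to 2.37), 0.23 for miR169-51-3p and -0.43 for miR169-43.a-3p. miR169-51-3p was at 113.4, 217.3, 60.3 and 112.3 RPM in control and 184.1, 163.4, 141.6 and 131.0 RPM in heat plants at 0 DAT, with a log2 fold change of 0.23 (95% interval -0.60 to 1.06). miR169-43.a-3p was at 60.0, 281.2, 211.0 and 33.7 RPM in control and 16.7, 118.0, 119.3 and 142.0 RPM in heat plants. Its groups overlapped, and its log2 fold change was -0.43 (95% interval -1.74 to 0.88). miR169-43.b-3p was at 13.3, 178.9, 105.5 and 5.61 RPM in control and 66.9, 172.5, 141.6 and 163.8 RPM in heat plants, also with overlap. Without control replicate 2 its log2 fold change was 2.22 (edgeR FDR 0.056). The remaining log2 fold changes at 0 DAT were 0.88 for miR169-45-3p, -0.76 for miR169-9-3p and -0.74 for miR169l-1, with edgeR FDR from 0.269 to 0.726. For miR169l-1 the 95% interval ran from -2.98 to 1.49, the widest of the 8.

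At 1 DAT, miR169-43.a-3p was lower in heat plants and was again the only member to pass. This was 0 of 8 members higher and 1 lower, where 11.4% of all tags passed, 6.44% higher and 4.95% lower. The split of all tags, 13 higher and 10 lower, became 13 and 6 with RLE factors, 5 and 0 with library totals and 16 and 0 with totals without miR166, and the member was lost in each. The median of the 8 members was -0.45, with 3 of 8 above 0, compared with -0.12 and 84 of 202 over all tags.

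miR169-43.a-3p had 33, 18, 16 and 19 reads in the control libraries of 1 DAT and 12, 0, 8 and 1 reads in the heat libraries. Its level was 181.0, 142.9, 156.5 and 153.1 RPM in control and 91.1, 0, 62.5 and 7.99 RPM in heat plants. The controls were even and every heat library lay below them. At 1 DAT 2.48% of all tags had every heat library below every control and 6.93% had every heat library above. No other member had groups without overlap on any day, where these shares were 12.4% and 10.9% at 0 DAT and 5.45% and 2.97% at 4 DAT. The log2 fold change was -2.07 ± 0.68 (SE; 95% interval -3.48 to -0.66; edgeR FDR 0.0491). This FDR was close to the threshold, and ranged from 0.0249 to 0.139 over 9 other settings, of which 4 kept the call, while leaving out 1 library kept it in 5 of 24 cases. Without heat replicate 2, which had 0 reads of the tag, the log2 fold change was -1.52 (edgeR FDR 0.136), and without heat replicate 1 it was -2.92 (edgeR FDR 0.041).

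Its longer forms did not pass, and whether they differed from it was not tested. miR169-43.b-3p, with the extra 3′ C, had a log2 fold change of -0.52 at 1 DAT (95% interval -1.94 to 0.90), with control libraries at 142.6, 47.6, 185.9 and 0 RPM and heat libraries at 75.9, 66.7, 78.2 and 39.95 RPM. miR169-51-3p, with the extra 5′ A, had -0.38 (95% interval -1.23 to 0.47). Of the C tags, miR169-35-3p had 0.62 (95% interval -0.86 to 2.09) and miR169-34-3p 0.43 (95% interval -0.63 to 1.49). miR169-34-3p was at 224.9, 95.3, 176.1 and 64.5 RPM in control and 296.0, 186.8, 195.4 and 87.9 RPM in heat plants, so that the groups overlapped. The log2 fold change was -0.89 for miR169-9-3p, -0.71 for miR169-45-3p and 0.54 for miR169l-1, none of which passed.

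After 4 days of recovery no member passed, as was the case for all 202 tags (0% called). At an unadjusted p under 0.05 there were 0 of the 8 members and 26 of the 202 tags (12.9%). The likelihood ratio test of edgeR called 3 tags and DESeq2 4, none of them a member. All 8 log2 fold changes were below 0, from -1.07 for miR169-43.a-3p (95% interval -2.39 to 0.24) to -0.09 for miR169-51-3p (95% interval -0.96 to 0.78), with a median of -0.36 compared with -0.06 over all tags. Of all 202 tags, 93 were above 0, and members of near-identical sequence are not independent counts. miR169-43.a-3p was at 171.8, 140.9, 144.6 and 109.7 RPM in control and 126.6, 42.4, 67.1 and 37.6 RPM in heat plants, with heat replicate 1 alone inside the control range. When the 3 days were tested together, 0 of 8 members passed, where 22.3% of all tags did. The smallest edgeR FDR of a member in that test was 0.0616, for miR169-43.a-3p, followed by 0.0769 for miR169-35-3p. At an unadjusted p under 0.05 that test held 64 of the 202 tags (31.7%), and in it the likelihood ratio test called 2 members and DESeq2 1.

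**Figure D3:**
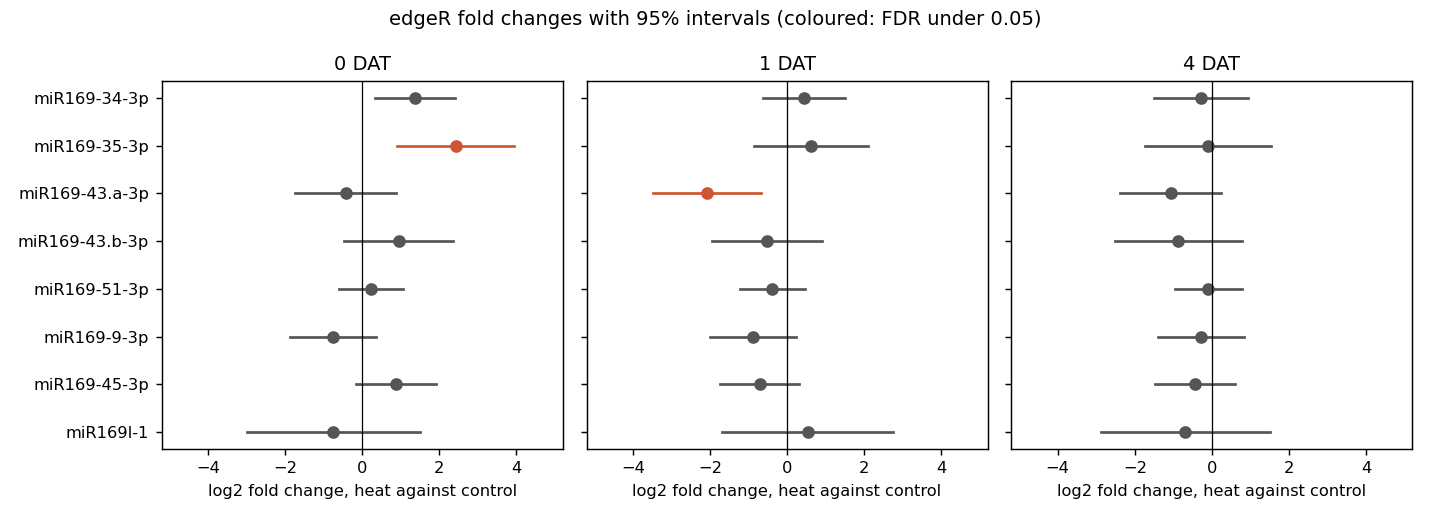
Log2 fold change of heat against control for each miR169 tag at 0, 1 and 4 DAT, with points for the edgeR estimate and lines for the 95% interval; orange marks an FDR under 0.05 over 202 tags. miR169-35-3p at 0 DAT (2.42) and miR169-43.a-3p at 1 DAT (-2.07) are the coloured ones, and the lines of miR169l-1 are the widest.

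Pairs of these tags have the same length and differ by 1 base, and their ratio within a library does not use the scaling between libraries, although it depends on depth where a tag has few reads. The ratio of the C tag to the T tag was taken from the reads, with 0.5 added to each count, for the 19 nt pair and for the 20 nt pair, on each day. These are 6 tests, which use the same reads as the tests of single tags and are not independent of them. The 2 ratios were chosen with earlier results of these data known. How often the ratio of other tag pairs separates heat from control libraries was not counted.

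For the 19 nt pair at 0 DAT, miR169-34-3p over miR169-43.a-3p was 1.21, 1.36, 1.00 and 1.62 in the control libraries. In the heat libraries it was 13.0, 5.22, 3.06 and 3.59. All 4 heat libraries lay above all 4 controls, including control replicate 2, which was high in both tags. The mean log2 ratio was 2.39 ± 0.93 in heat and 0.35 ± 0.29 in control plants (SD, n = 4), a 4.09-fold difference (exact two-sided permutation test, p = 0.0286, adjusted over the 6 tests p = 0.0571). This p is the smallest that 4 against 4 libraries can give.

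At 1 DAT the same ratio was 1.24, 0.676, 1.12 and 0.436 in control and 3.16, 85.0, 3.0 and 7.67 in heat libraries, again without overlap. The value of 85.0 comes from heat replicate 2, with 42 reads of miR169-34-3p and 0 of miR169-43.a-3p, and is set by the 0.5 added. The mean log2 ratio differed by 3.47 (11.1-fold; exact permutation test, p = 0.0286, adjusted p = 0.0571), and by 2.38 without that library. At 4 DAT it was 0.448, 0.600, 0.831 and 0.333 in control and 0.939, 1.36, 1.00 and 0.714 in heat libraries, which overlapped (log2 difference 0.90, exact permutation test, p = 0.0571, adjusted p = 0.0857). The heat libraries were thus the higher group on all 3 days, by the least at 4 DAT, but no adjusted p fell below 0.05. At 0 and 1 DAT the p of 0.0286 was already the smallest that 4 against 4 libraries can give. The adjustment raised it to 0.0571, however large the difference. An adjusted p below 0.05 would have needed more of the ratio tests to reach that smallest p. The adjusted p therefore cannot decide whether the ratio differed on those days.

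For the 20 nt pair, miR169-35-3p over miR169-51-3p at 0 DAT was 0.0286, 0.246, 0.111 and 0.220 in control and 1.09, 0.838, 0.795 and 0.280 in heat libraries. The groups did not overlap there either, although heat replicate 4 was close to the controls, and control replicates 1 and 3 had 0 reads of miR169-35-3p. The log2 difference was 2.55 (5.86-fold; exact permutation test, p = 0.0286, adjusted p = 0.0571), and it was 2.09 with 1 added to each count. At 1 DAT the groups overlapped (log2 difference 1.05, exact permutation test, p = 0.143, adjusted p = 0.171). At 4 DAT the log2 difference was 0.22 (exact permutation test, p = 0.829, adjusted p = 0.829).

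**Figure D4:**
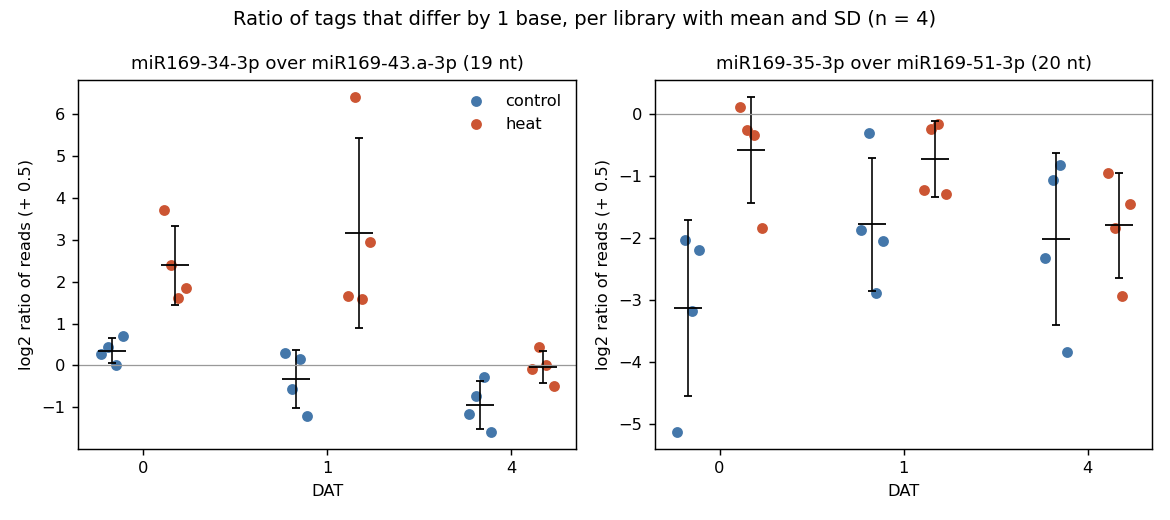
Log2 ratio of reads (0.5 added) of the C tag over the T tag in each library, for the 19 nt pair (left) and the 20 nt pair (right), with control in blue, heat in orange and bars for the mean and SD of 4. For the 19 nt pair at 0 and 1 DAT, and the 20 nt pair at 0 DAT, all heat points lie above all control points. Such separation was not counted over other pairs of tags. The highest point, 6.41, is a library with 0 reads of miR169-43.a-3p.

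The course of recovery was followed within each treatment. In heat plants, miR169-34-3p fell from 0 to 4 DAT, the change of a member with the smallest FDR in these data. It was at 317.9, 635.4, 372.7 and 524.2 RPM at 0 DAT, at 296.0, 186.8, 195.4 and 87.9 RPM at 1 DAT and at 118.7, 59.4, 67.1 and 26.3 RPM at 4 DAT. Each library of 0 DAT lay above every library of 1 and of 4 DAT, while those of 1 and 4 DAT overlapped. The share of all tags separated in this way between days was not counted. The log2 fold change from 0 to 4 DAT was -2.84 ± 0.55 (SE; 95% interval -3.98 to -1.70; edgeR FDR 0.00273). It passed under all 8 other settings and with any of the 24 libraries left out. This was 1 of 8 members lower and 0 higher, where 5.45% of all tags passed, 2.97% lower and 2.48% higher. The split of all tags, 5 higher and 6 lower, became 1 and 13 with library totals and 3 and 6 with totals without miR166.

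The 7 other members were also lower in heat plants at 4 than at 0 DAT without passing, and the median of the 8 was -0.98, compared with -0.02 over all tags. Of all 202 tags, 94 were higher at 4 than at 0 DAT. The log2 fold change was -2.24 for miR169-35-3p (95% interval -3.72 to -0.75; edgeR FDR 0.060) and -2.21 for miR169-43.b-3p (95% interval -3.77 to -0.64; FDR 0.0797). With the plant pool as a replicate block, as the same plants were sampled on each day, miR169-35-3p passed (log2 fold change -2.16, edgeR FDR 0.0421), so that 2 of 8 were called. miR169-45-3p had -1.08, miR169-51-3p -0.87, miR169-43.a-3p -0.66, miR169-9-3p -0.29 and miR169l-1 -0.23. The comparisons with 0 DAT use the same 4 heat libraries of 0 DAT as the test of heat against control on that day. From 0 to 1 DAT in heat plants 0 of 8 members passed, where 1.98% of all tags did, and 1 member, miR169-34-3p, had an unadjusted p under 0.05, as did 9.9% of all tags (log2 fold change -1.28, 95% interval -2.29 to -0.26, edgeR FDR 0.251). The likelihood ratio test and DESeq2 called no member there either.

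In control plants no member passed between days, as was the case for all 202 tags (0% called for 1 and for 4 against 0 DAT). At an unadjusted p under 0.05 there were 0 members and 9 tags (4.46%) at 1 DAT, and 1 member and 7 tags (3.47%) at 4 DAT, and the likelihood ratio test and DESeq2 called none. That member was miR169-34-3p, whose log2 fold change from 0 to 4 DAT in controls was -1.17 (95% interval -2.30 to -0.04; edgeR FDR 1.00). Its mean was 181.0 ± 151.7 RPM at 0 DAT, 140.2 ± 73.5 at 1 DAT and 77.8 ± 34.9 at 4 DAT (SD, n = 4). In order of mean level, its groups ran from heat at 0 DAT (462.5 RPM) through heat at 1 DAT (191.5), control at 0 DAT (181.0), control at 1 DAT (140.2) and control at 4 DAT (77.8) to heat at 4 DAT (67.9). Only the step from heat at 0 DAT to heat at 1 DAT separated neighbours without overlap, a separation not counted over all tags.

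Whether the effect of heat changed between days was tested as an interaction. From 0 to 4 DAT, 0 of 8 members passed, where 0.99% of all tags did. The log2 change of the effect was -1.67 for miR169-34-3p (95% interval -3.27 to -0.06; edgeR FDR 0.537) and -2.53 for miR169-35-3p (95% interval -4.81 to -0.24; FDR 0.431). From 0 to 1 DAT, 0 of 8 members passed, where 2.48% of all tags did, and the change for miR169-43.a-3p was -1.64 (95% interval -3.57 to 0.29; edgeR FDR 0.810). At an unadjusted p under 0.05 there was 1 member from 0 to 1 DAT, miR169-45-3p with -1.59, where 8.91% of all tags had such a p. There were 2 from 0 to 4 DAT, where 8.42% had, and the likelihood ratio test and DESeq2 called no member in either. The fall of miR169-34-3p in heat plants was thus not shown to exceed that in control plants.

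Both abundant 3p tags carried enough reads in every library to be read closely, with 17 to 244 reads for miR169-9-3p and 30 to 209 for miR169-45-3p. miR169-9-3p was lower in heat than in control plants by the mean on each day, at 964.4 ± 566.0 against 558.8 ± 203.5 RPM at 0 DAT, 765.1 ± 354.0 against 415.0 ± 360.3 at 1 DAT and 565.9 ± 108.6 against 455.1 ± 287.5 at 4 DAT (control against heat, SD, n = 4). The groups overlapped on each day. miR169-45-3p was at 625.2 ± 214.9 in control and 1142 ± 585.5 RPM in heat plants at 0 DAT, where heat replicates 2 and 3, at 1725 and 1558 RPM, lay above all controls. On the later days the order of the means turned, with 1013 ± 754.1 against 616.8 ± 238.2 RPM at 1 DAT and 734.6 ± 280.4 against 544.2 ± 323.8 at 4 DAT, within the spread of the libraries.

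miR169-51-3p was the steadiest member, with group means between 88.0 ± 36.3 RPM (heat, 4 DAT) and 155.0 ± 23.6 RPM (heat, 0 DAT). miR169-43.b-3p ranged from 29.9 ± 12.8 RPM in heat at 4 DAT to 136.2 ± 48.0 in heat at 0 DAT. Within control plants at 0 DAT it took values from 5.61 to 178.9 RPM.

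Summed over the 8 tags, the family was at 3117 ± 1958 RPM in control and 3245 ± 873 RPM in heat plants at 0 DAT. It was at 2797 ± 963 and 2148 ± 798 RPM at 1 DAT, and at 2452 ± 833 and 1770 ± 580 RPM at 4 DAT. In each pair the difference was smaller than the SD of the larger group. The share of miR169l-1 in the sum ranged from 17.1% (heat, 0 DAT) to 28.2% (heat, 1 DAT) as a group mean.

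Across the 24 libraries, which share their treatment groups, plant pools and scaling, members of near-identical sequence did not always follow each other. The Pearson correlation of log2 RPM was 0.79 between miR169-34-3p and miR169-43.b-3p, 0.62 between miR169-34-3p and miR169-35-3p, and 0.22 between miR169-34-3p and miR169-43.a-3p. For the last pair it was 0.70 once group means were removed, so the 2 tags rose and fell together more within groups than across them. miR169-9-3p and miR169-45-3p had 0.58. miR169l-1 had between -0.23 and 0.30 with the 7 others, which are the 3p tags.

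Outside the family, the tags most like miR169l-1 over the 24 libraries were miR9662-1.a-3p (Pearson r = 0.56), miR9670-2.b-5p (0.54) and miR2020b-1 (0.54). For miR169-35-3p they were miR167-1-5p (0.69), miR1121-18-3p (0.66) and miR1133-72-3p (0.63), and for miR169-43.a-3p they were miR171-1-5p (0.58), miR1121-6-5p (0.54) and miR5062a-1 (0.53). These are the highest outside the family for each and are descriptions only.

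Other families whose known targets are transcription factors (miR156, miR159, miR166, miR167, miR171, miR319 and miR396) held 47 tags. At 0 DAT 4 of 47 were higher and 3 lower in heat plants with a median log2 fold change of 0.04, and at 1 DAT 1 was higher and 2 lower with a median of -0.09. Calls were also counted by tag length, without a test of the difference. Of the 15 tags of 18 or 19 nt outside miR169, 7 were higher and 1 lower at 0 DAT, where 8.91% of all tags were higher and 8.42% lower, with a median log2 fold change of 1.28 compared with -0.04 over all tags. At 1 DAT 5 of them were higher and 1 lower, where 6.44% of all tags were higher and 4.95% lower, with a median of 0.29. Of the 17 tags of 20 nt, 1 was higher and 2 lower at 0 DAT, with a median of 0.15, and 1 was higher and 0 lower at 1 DAT, with a median of 0.08. miR169-34-3p, at 19 nt, had its log2 fold change of 1.38 near the median of the short tags, while miR169-43.a-3p, also of 19 nt, had -0.43. miR169-35-3p, at 20 nt, had 2.42. The part of tag length in these values was not tested.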

How the data were processed

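The authors sequenced size-selected small RNA (Illumina TruSeq, MiSeq, each library in 3 runs), mapped tags that reached a minimum RPM to wheat pre-miRNA loci (IWGSC RefSeq v1.0) with Bowtie2, kept tags with a predicted hairpin, and deposited raw read counts per tag, not normalized; the counts were used as deposited, and hold no run information. Only tags that matched a hairpin perfectly were kept. The 24 libraries were grouped by treatment and day from their labels. edgeR 4.0.16 (R 4.3.3) was run with TMM factors, no filter and a quasi-likelihood F-test over all 202 tags. The study named the likelihood ratio test, which was an alternative, as were DESeq2 1.42.0, other scalings, a mean count of at least 10, fits per day, replicate blocks and leaving out each library. Log2 RPM used a prior count of 2. Hairpins were folded with RNAfold 2.7.2, and the edgeR test was checked on simulated counts. Every simulated tag had the common dispersion of 0.128, whereas the members had 0.106 to 1.004, so the check did not cover their spread. Of 36 pairs of replicates, 0 agreed within sampling noise.

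The members, the ratios and the tag lists were chosen with earlier results of these data known. All 8 members are named, and other tags are the 3 most correlated with miR169l-1 and with each member called on at least 1 day. Tag names are as deposited, and the study's hairpin table was matched to them by sequence, since it numbers the variants that the counts mark a and b. Replicate numbers were taken to mark the same plants across days. Between days, same-numbered libraries of a treatment had r from -0.55 (heat replicate 2, 1 and 4 DAT) to 0.44 (control replicate 3, 0 and 1 DAT). Between heat and control, same-numbered libraries deviated together at 1 DAT (r = 0.24 to 0.57 over 122 tags with a mean count of at least 20). For replicates 1 to 4, r was -0.17, 0.50, 0.26 and 0.54 at 4 DAT and 0.20, 0.26, -0.12 and 0.05 at 0 DAT. The main tests of heat against control paired no libraries, and pairing by replicate number on all days was an alternative. Nothing ties the separate pools to separate experiments, so p-values measure the spread between pools of 1 experiment.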

Additional observations from a re-analysis of the deposited data

Results flagged for a closer look

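Within groups of 4 libraries, the levels of the 8 tags and the ratios were searched for a library far from the other 3 (Dixon's test at 95%), in 60 groups, of which chance would flag about 1 in 20. It flagged 3. miR169-51-3p was at 182.2 RPM in heat replicate 1 of 1 DAT, with the other libraries at 57.8, 63.9 and 70.4 RPM. The same tag was at 33.81 RPM in heat replicate 4 of 4 DAT, the deepest library (300261 reads), with the others at 101.8, 105.5 and 110.8 RPM. miR169l-1 was at 1562 RPM in heat replicate 4 of 0 DAT, with the others at 96.9, 284.4 and 344.9 RPM. The causes were not tested.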

How the results depend on the processing

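Alternatives gave 0 to 2 members called at 0 DAT against 1 in the report. The likelihood ratio test, and day and replicate number as a block, called 2 (miR169-34-3p added, FDR 0.0483 and 0.00371). A mean count of at least 10, which removes miR169-35-3p, and the fit of 8 libraries called 0. All tags called there were 41, 36, 32 and 37 in that order, against 35 in the report. At 1 DAT, 0 in place of 1 was called with RLE factors (FDR of miR169-43.a-3p 0.0553), library totals (0.0987), totals without miR166 (0.1004), the count filter (0.0603) and the fit of 8 libraries (0.139). From 0 to 4 DAT in heat plants, the likelihood ratio test called 3 members in place of 1. DESeq2, library totals and the plant pool as a replicate block called 2 each. All tags called there were 16, 19, 14 and 11 in that order, against 11 in the report. For any day, 2 in place of 0 were called with the likelihood ratio test and with the replicate block, and 1 with DESeq2. All tags called for any day ranged from 24 to 57 over the alternatives, against 45 in the report. The causes were not tested. The blocks changed no other member's call, and the ratios kept their direction, with an adjusted p of 0.15 for 5 of 6 in exact sign-flip tests of same-numbered libraries, since 4 pairs cannot go below 0.125. Robust dispersions, chosen after seeing the data, changed no count of members.

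Leaving out 1 library gave 0 to 2 members at 0 DAT (22 to 40 of all tags) and 0 to 1 at 1 DAT (1 to 25). It gave 1 to 2 from 0 to 4 DAT in heat (8 to 18) and 0 to 2 for any day (38 to 50). Log2 fold changes that turned sign this way, none of them called, ranged at 0 DAT from -0.80 to 0.27 for miR169-43.a-3p and -2.0039 to 0.26 for miR169l-1. At 1 DAT they ranged from -0.92 to 0.0049 for miR169-43.b-3p and -0.0945 to 1.18 for miR169l-1. At 4 DAT they ranged from -0.78 to 0.38 for miR169-35-3p (0.0107 also with totals without miR166), -0.25 to 0.25 for miR169-51-3p, -0.73 to 0.0859 for miR169-34-3p, -0.77 to 0.0092 for miR169-9-3p and -1.84 to 0.84 for miR169l-1. From 0 to 4 DAT in heat they ranged from -0.77 to 0.0071 for miR169-9-3p and -1.38 to 1.03 for miR169l-1. The log2 difference of the 20 nt ratio at 4 DAT ranged from -0.39 to 0.62.

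The split of all calls into higher and lower moved with the scaling. Totals without miR166 moved the median of all tags at 1 DAT by 0.26 and from 0 to 1 DAT in controls by -0.20 on the log2 scale. The count of all tags called fell to 12 with the filter and 1 in the fit of 8 libraries at 1 DAT, and to 24 for any day with library totals. From 0 to 4 DAT in heat it rose to 19 with DESeq2, and from 0 to 1 DAT to 9 with the likelihood ratio test and 7 with DESeq2. For the changes of the heat effect it ranged from 1 to 9 from 0 to 1 DAT and 1 to 7 from 0 to 4 DAT. With 3.76 to 16.7 RPM per read, the lower tags are limited by depth.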
